A study of Mus musculus with 28 samples.

Results

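The retinoic acid pathway genes described here are Cyp26a1, Cyp26b1 and Cyp26c1, Aldh1a2 and Aldh1a3, Rara, Rarb and Rarg, and Crabp1 and Crabp2. These 10 genes, of 22208 protein-coding genes in the mm9 annotation, were chosen by name from what is known of the pathway. Cyp26c1 and Cyp26a1 lie 4.409 kb apart on chromosome 19 and were treated as a single locus where the surroundings of the genes were measured, which gives 9 loci. All cultures were mouse embryonic stem cells (ESCs) made into embryoid bodies, dissociated on day 2 and reaggregated for 40 h with VEGF, activin A and BMP4, the factors used to induce mesoderm, until day 4. The histone and Suz12 samples came from the cell line Brg1f/f; Actin-CreER. In this line both conditions carry floxed alleles of Brg1, the ATPase of the BAF chromatin remodelling complex, and a tamoxifen-activated Cre recombinase under an actin promoter, so that Cre can act in every cell type of a culture. Control cultures received tetrahydrofuran (THF) alone from day 2 and deleted cultures received 200 nM 4-hydroxytamoxifen (4-OHT) in THF. The study describes a gradual loss of Brg1 protein during induction and proposes that residual Brg1 activity may remain in the treated cultures. A mark that was kept after 4-OHT is therefore not shown to be independent of Brg1. A line given 4-OHT without the floxed alleles was not analysed here, so effects of the drug and of the deletion cannot be told apart. ChIP-seq lists of enriched regions were analysed for H3K27ac (2 control and 2 4-OHT), H3K27me3 (3 and 3), Suz12 (2 and 2) and FLAG-tagged Brg1 (3, without 4-OHT). The labels give the FLAG samples the same cell line as the others, whereas the methods of the study describe a separate ESC line with a FLAG tag on Brg1.

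Each list holds only the start and end of regions, in steps of 25 bp, so the value used throughout is the covered length, the number of bases of a window that lie in listed regions. Read depth and peak height are not in the lists, and a change in covered length does not say how much the signal inside a region changed. The H3K27ac lists held 32161 to 41062 regions, the Suz12 lists 2913 to 4016, and the H3K27me3 lists 6787 to 16959. The H3K27me3 list of replicate 1 stood apart in both conditions, with no region wider than 9.3 kb in control and 7.55 kb after 4-OHT, against up to 94.725 kb in the other lists. FLAG replicates 1 and 2 listed 8021 and 8257 regions and replicate 3 only 192, so replicate 3 added almost nothing. The lists cannot show the deletion of Brg1 itself, and H3K27ac within 5 kb of the Brg1 (Smarca4) TSSs covered 2875 and 2450 bp in control against 3250 and 3375 bp after 4-OHT. Of 8 mesoderm and primitive streak genes, 7 had H3K27ac within 5 kb of a TSS in both control lists, the exception being Kdr, as had 2 of 4 pluripotency, 0 of 3 neural, 0 of 4 endoderm and 1 of 4 cardiomyocyte genes. The share over all genes was 49.4%. H3K27me3 lay there in at least 2 of 3 control lists at 4 mesoderm, 1 pluripotency, 3 neural, 3 endoderm and 1 cardiomyocyte genes. Where covered length differs between conditions, fewer cells carrying a mark and less of the mark per cell cannot be told apart.

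Retinoic acid is made from vitamin A in steps, the last of which is carried out by retinaldehyde dehydrogenases such as Aldh1a2 and Aldh1a3, and it is broken down by the Cyp26 cytochromes. It acts through the nuclear receptors Rara, Rarb and Rarg, which bind DNA with RXR partners at direct repeats of a hexamer, and it is carried in the cytoplasm by the binding proteins Crabp1 and Crabp2. In early mesoderm, Aldh1a2 is the main source of retinoic acid, Cyp26a1 clears it from the primitive streak and tail bud, and the balance between them patterns the trunk and the heart field. H3K27ac marks active promoters and enhancers, and H3K27me3 is laid down by Polycomb repressive complex 2, of which Suz12 is a core subunit.

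In control cultures the promoters of the enzymes carried H3K27me3 without H3K27ac, and those of the receptors Rara and Rarg carried H3K27ac without H3K27me3. The promoter window was 5 kb on each side of every TSS of a gene. Of the 10 genes, 8 had H3K27me3 in at least 2 of 3 control lists, against 14.8% of all protein-coding genes, and 5 had Suz12 in both control lists, against 6.32%. H3K27ac was listed in both control lists at 3 of 10, against 49.4%. After 4-OHT the counts were 7 for H3K27me3 (12.6% of all genes), 7 for Suz12 (8.27%) and 2 for H3K27ac (49.8%). Cyp26a1, Cyp26b1, Cyp26c1, Aldh1a2 and Crabp1 had the same pattern, with H3K27me3 in all 6 lists, Suz12 in all 4 and no H3K27ac base in any list. Aldh1a3 differed from these only in Suz12, which was absent from control replicate 1. Rara and Rarg had the reverse pattern, with H3K27ac in all 4 lists and no base of H3K27me3 or Suz12 in any. Rarb and Crabp2 lay between these groups. Rarb held 225 to 900 bp of H3K27me3 in the control lists and 25 bp of H3K27ac in control replicate 2 alone. Crabp2 held 150 to 575 bp of H3K27me3 and 25 and 350 bp of H3K27ac in control, the latter at the 3' end of the gene, 4.49 kb from its TSS.

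**Figure D1:**
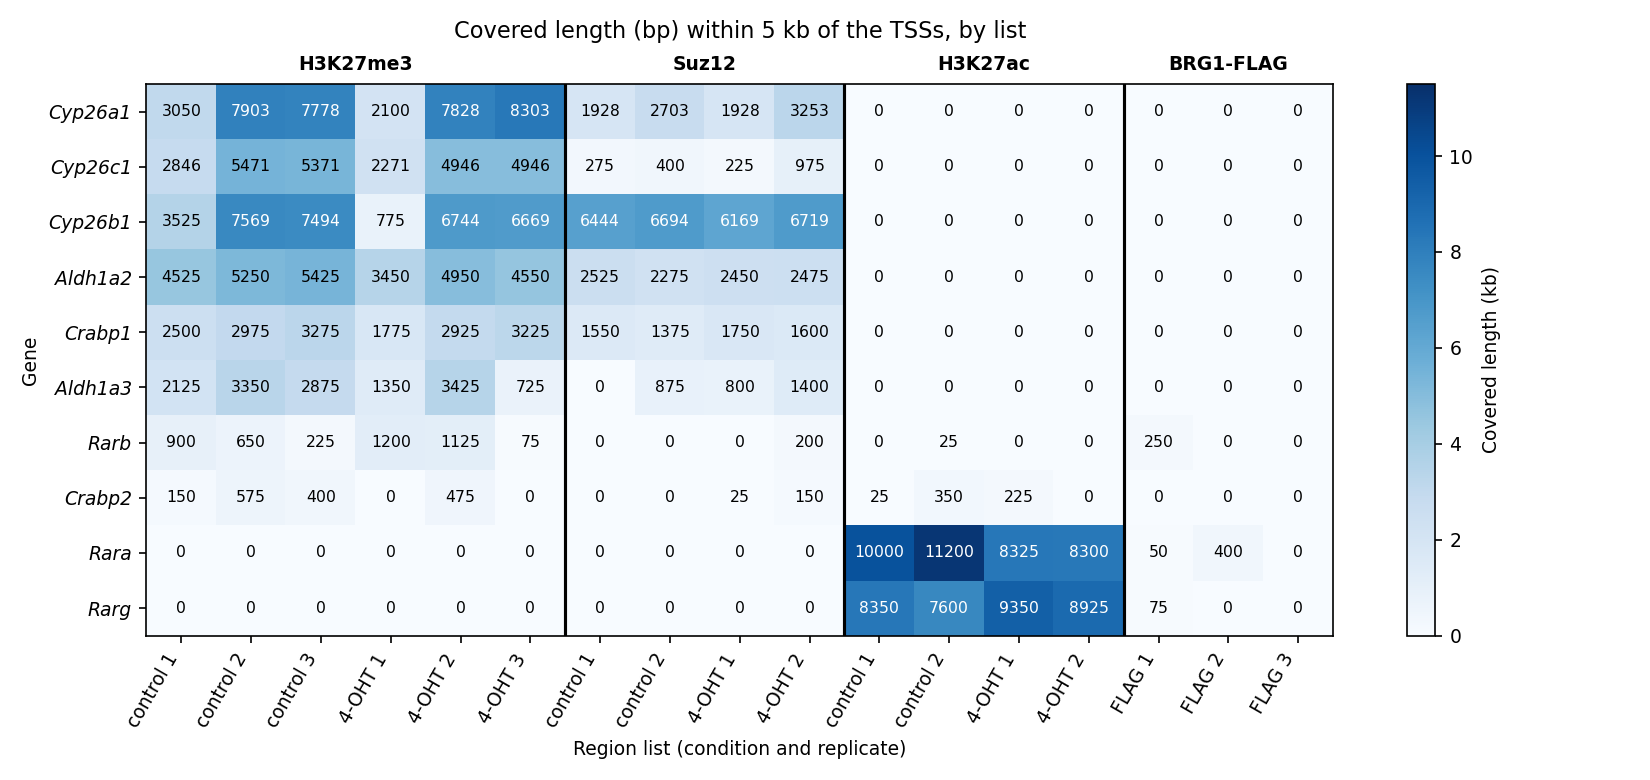
Heat map of covered length within 5 kb of the TSSs for the 10 genes (rows) in each of the 17 region lists (columns), with the value in bp in each cell and the colour scale in kb. Cyp26a1, Cyp26c1, Cyp26b1, Aldh1a2, Crabp1 and Aldh1a3 carry H3K27me3 in all 6 lists and no H3K27ac, while Rara and Rarg carry H3K27ac in all 4 lists and neither H3K27me3 nor Suz12.

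In the 3 Polycomb-listed genes with a choice of TSS, H3K27me3 and Suz12 within 1 kb of a start site lay at the CpG-richer of its pair of TSSs, except for an H3K27me3 region of Cyp26b1 in control replicate 1. CpG content is given as the observed over expected ratio in the 1000 bp around a TSS, which has a median of 0.547 and quartiles of 0.224 and 0.769 over all genes. Cyp26b1 had H3K27me3 in 6 of 6 lists within 1 kb of its internal TSS at 84538632 on chromosome 6 (CpG ratio 0.850), and in 1 list, with 175 bp, at the upstream TSS at 84543740 (0.247), while Suz12 lay only at the internal TSS. Aldh1a3 had it in 6 lists at the TSS at 73572403 on chromosome 7 (0.685) and in 0 lists at the internal TSS at 73564121 (0.340). In Rarb the small H3K27me3 regions lay at the internal TSS at 17407986 on chromosome 14 (0.769), as did the only Suz12 region, 200 bp of 4-OHT replicate 2, and no list had a base of either mark at the upstream TSS at 17651381 (0.0776). Among the genes with a single TSS, Aldh1a2 had a ratio of 0.931, Cyp26a1 0.728, Crabp1 0.617, Crabp2 0.486 and Cyp26c1 0.389. Cyp26c1, the lowest of these, had Suz12 within 1 kb of its TSS in only 1 of 4 lists, though in all 4 within 5 kb. Crabp2 had Suz12 within 1 kb in neither control list and in both 4-OHT lists. A high ratio did not always go with these marks. Rara TSSs with ratios of 0.694, 0.698 and 0.629 and a Rarg TSS at 0.633 had no base of either mark within 1 kb in any list.

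Direct repeats that retinoic acid receptors bind were found in the promoters of Cyp26a1, Rarb and Rara. The motif searched was the hexamer AGGTCA, its variant AGTTCA, its variant GGTTCA or its variant GGGTCA, followed by any of the same 4 after 5 bases (DR5) or 2 bases (DR2), on both strands. In the 1000 bp before a TSS, DR5 occurred at 3 of the 20 TSSs of the 10 genes, against 158 of 45807 TSSs of all protein-coding genes (0.345%), and DR2 at 0 of 20, against 0.668%. The repeats near Cyp26a1 and the internal Rarb TSS are textbook retinoic acid response elements, so their presence was known. The Rara repeat is built from the same variant, AGTTCA, as that of Cyp26a1 and is not presented as a new find. The genes were chosen from the known pathway, and the variants searched include those of its known elements. The count of 3 of 20 against 0.345% therefore cannot test enrichment. All 3 sequences are shown to place the repeats beside the listed regions. Each line gives 250 bp before the TSS (for Rara, the next 250 bp upstream of those before its TSS at 98821726), 5' to 3' in the direction of the gene, from the NCBIM37 (mm9) genome, with the repeat in capitals. The positions are chr19:37772048-37772297 on the plus strand, chr14:17407987-17408236 on the minus strand and chr11:98821226-98821475 on the plus strand.
Cyp26a1: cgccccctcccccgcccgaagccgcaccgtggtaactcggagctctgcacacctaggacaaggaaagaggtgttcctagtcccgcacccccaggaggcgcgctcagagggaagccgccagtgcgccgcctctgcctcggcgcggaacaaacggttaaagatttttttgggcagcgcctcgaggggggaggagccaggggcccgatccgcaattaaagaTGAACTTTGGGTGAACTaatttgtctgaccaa
Rarb: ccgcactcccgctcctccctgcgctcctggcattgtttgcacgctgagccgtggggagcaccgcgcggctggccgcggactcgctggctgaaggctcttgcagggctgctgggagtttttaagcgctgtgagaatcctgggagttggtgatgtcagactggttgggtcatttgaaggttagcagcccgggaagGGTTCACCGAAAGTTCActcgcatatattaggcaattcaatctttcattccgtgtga
Rara: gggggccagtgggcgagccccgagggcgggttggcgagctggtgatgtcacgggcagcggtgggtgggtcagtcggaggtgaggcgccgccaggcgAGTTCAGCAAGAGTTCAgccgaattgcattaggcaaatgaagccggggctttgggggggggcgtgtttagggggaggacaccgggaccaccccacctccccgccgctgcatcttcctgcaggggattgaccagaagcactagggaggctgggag
The Cyp26a1 repeat lies at -32 bp from the TSS and reads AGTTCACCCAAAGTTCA on the opposite strand, the Rarb repeat lies at -57 bp from its TSS, and the Rara repeat at -404 bp. The Cyp26a1 repeat was covered by Suz12 in both control and both 4-OHT lists and by H3K27me3 in 1 4-OHT list. A second DR5 of Cyp26a1, GGGTCACAGGCGGGTCA at 37770399 to 37770415, lies at -1899 bp and was covered by H3K27me3 in 2 control lists and 1 4-OHT list. Neither the Rarb nor the Rara repeat was covered in any list of any mark, although H3K27ac covered 575 and 575 bp in control against 425 and 525 bp after 4-OHT within 1 kb of that Rara TSS. In the wider window of 5 kb on each side, DR5 occurred at 4 of 10 genes (4.59% of all genes), the additional gene being Rarg, and DR2 at 3 of 10 (13.5%), namely Cyp26a1, Rarg and Crabp2. A match describes the letters of a window and is neither a bound site nor a cause.

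H3K27ac around the genes was compared between control and Brg1-deleted cultures in the gene body with 50 kb on each side. Covered length was lower in both 4-OHT lists than in both control lists at 4 of 9 loci (Cyp26a1-Cyp26c1, Aldh1a3, Rara and Crabp1), against 17.6% of 22208 genes, or 21.9% of the 17865 genes with any listed base. It was higher in both at 2 loci (Rarg and Crabp2), against 31.2% and 38.8%. The median log2 ratio of 4-OHT to control over the 8 loci with a listed base was -0.15, against 0.11 over all such genes. With 2 samples against 2, the exact two-sided permutation test cannot go below p = 0.333, and all 6 of these loci stood at that value. limma on log2(covered bp + 250) tested 17186 genes and called 0 at an adjusted p of 0.05, with 4552 genes (26.5%) at an unadjusted p under 0.05. Among them were 3 of the 8 loci tested, namely Aldh1a3, Crabp2 and Cyp26a1-Cyp26c1. Where each list was scaled to the same total, limma called 460 genes lower (2.68%) and 104 higher (0.605%), and Aldh1a3 was among the lower ones with an adjusted p of 0.0245, while 32.3% of genes were at an unadjusted p under 0.05. The labels number the samples of a group as biological replicates without naming the cultures, so p-values measure only the spread between these samples.

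**Figure D2:**
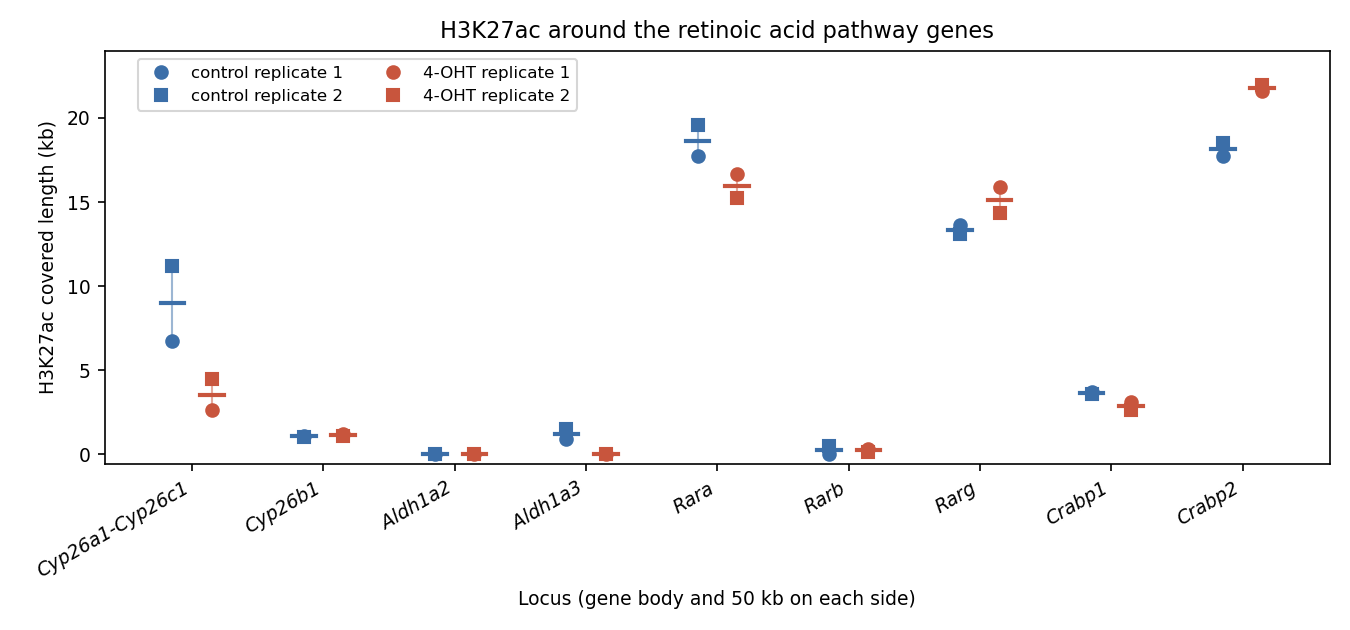
H3K27ac covered length (kb) at the 9 loci, each the gene body with 50 kb on each side, for control (blue) and 4-OHT (red) replicates, with horizontal lines at the means and vertical lines joining the 2 replicates of a group. The 4-OHT points lie below both control points at Cyp26a1-Cyp26c1, Aldh1a3, Rara and Crabp1 and above them at Rarg and Crabp2.

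Of the enzymes that make retinoic acid, Aldh1a2 had no H3K27ac within its 80.45 kb gene body (chromosome 9, 71063596 to 71144050, plus strand) or 50 kb on either side in any of the 4 lists. Aldh1a3 (chromosome 7, 73535778 to 73572403, minus strand) had 925 and 1475 bp with THF alone against 3 and 0 bp after 4-OHT. All of it in control replicate 1, and most in replicate 2, was a single intergenic region at -22.91 kb from the TSS (a minus sign means upstream), from 73594801 to 73595825. This element covered 925 and 1025 bp in control and was absent from both 4-OHT lists, and the groups did not overlap. The log2 fold change of the locus was -2.50 with a standard error of 0.303 (limma, adjusted p = 0.102). No FLAG region lay in the element in any list. Its central 300 bp, chr7:73595163-73595462 on the plus strand, are shown because the element was in both control lists and in neither 4-OHT list. They hold no DR2 or DR5 match and so have no capitals.
Aldh1a3 element: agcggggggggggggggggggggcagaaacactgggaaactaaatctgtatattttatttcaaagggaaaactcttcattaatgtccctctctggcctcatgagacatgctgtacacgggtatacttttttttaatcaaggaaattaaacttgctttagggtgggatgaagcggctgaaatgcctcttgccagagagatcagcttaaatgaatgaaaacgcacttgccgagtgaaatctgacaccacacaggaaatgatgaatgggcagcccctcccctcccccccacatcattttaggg

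Among the loci of the enzymes that degrade retinoic acid, Cyp26a1-Cyp26c1 had less H3K27ac after 4-OHT and Cyp26b1 did not. At the Cyp26a1-Cyp26c1 locus (Cyp26a1 at 37772298 to 37776018 and Cyp26c1 at 37760071 to 37767888, both on the plus strand of chromosome 19), H3K27ac covered 6725 and 11200 bp in control against 2600 and 4475 bp after 4-OHT. The means were 8962.5 ± 3164 bp and 3537.5 ± 1326 bp (SD, n = 2 each), a ratio of 0.395 (exact two-sided permutation p = 0.333). Both 4-OHT lists lay below both control lists. The log2 fold change was -1.28 with a standard error of 0.370 (limma, adjusted p = 0.148). None of this H3K27ac lay in either gene body or within 5 kb of either TSS. The lower covered length was spread over elements on both sides, at -38.45 kb within the neighbouring gene Exoc6 (1300 and 2550 bp to 0 and 250 bp) and at 18.18, 21.55 and 42.23 kb downstream in intergenic sequence. That at 42.23 kb had 850 and 1400 bp in control and was in neither 4-OHT list, whereas that at 21.55 kb kept 1100 and 2100 bp of 2000 and 2425 bp. With 25 kb on each side, which leaves out the outer elements, the ratio was 0.599.

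Brg1-FLAG regions shared by 2 of the 3 FLAG lists lay inside both of the last elements, at 21.02 and 42.7 kb from the TSS. The elements at -38.45 and 18.18 kb also held FLAG bases of replicates 1 and 2 (275 and 450 bp, and 100 and 225 bp), at positions that shared no base. Apart from a region at Hdgf, the regions at 21.02 and 42.7 kb are the only ones of the 9 loci shared between FLAG lists. Their sequence is given on the plus strand as chr19:37793163-37793462 (the central 300 bp) and chr19:37814851-37815150 (the whole region), without a repeat match.
Cyp26a1 at 21.02 kb: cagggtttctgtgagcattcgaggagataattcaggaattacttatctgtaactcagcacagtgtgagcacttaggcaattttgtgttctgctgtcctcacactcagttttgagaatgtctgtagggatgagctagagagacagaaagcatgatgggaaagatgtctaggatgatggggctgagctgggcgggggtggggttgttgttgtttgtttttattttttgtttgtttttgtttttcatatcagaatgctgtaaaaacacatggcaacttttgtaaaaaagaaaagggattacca
Cyp26a1 at 42.7 kb: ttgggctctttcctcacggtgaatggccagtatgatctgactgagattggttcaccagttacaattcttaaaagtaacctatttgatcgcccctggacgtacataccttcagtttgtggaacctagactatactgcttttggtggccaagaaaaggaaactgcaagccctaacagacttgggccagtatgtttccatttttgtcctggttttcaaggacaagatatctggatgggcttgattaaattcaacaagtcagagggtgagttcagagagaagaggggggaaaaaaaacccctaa

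**Figure D3:**
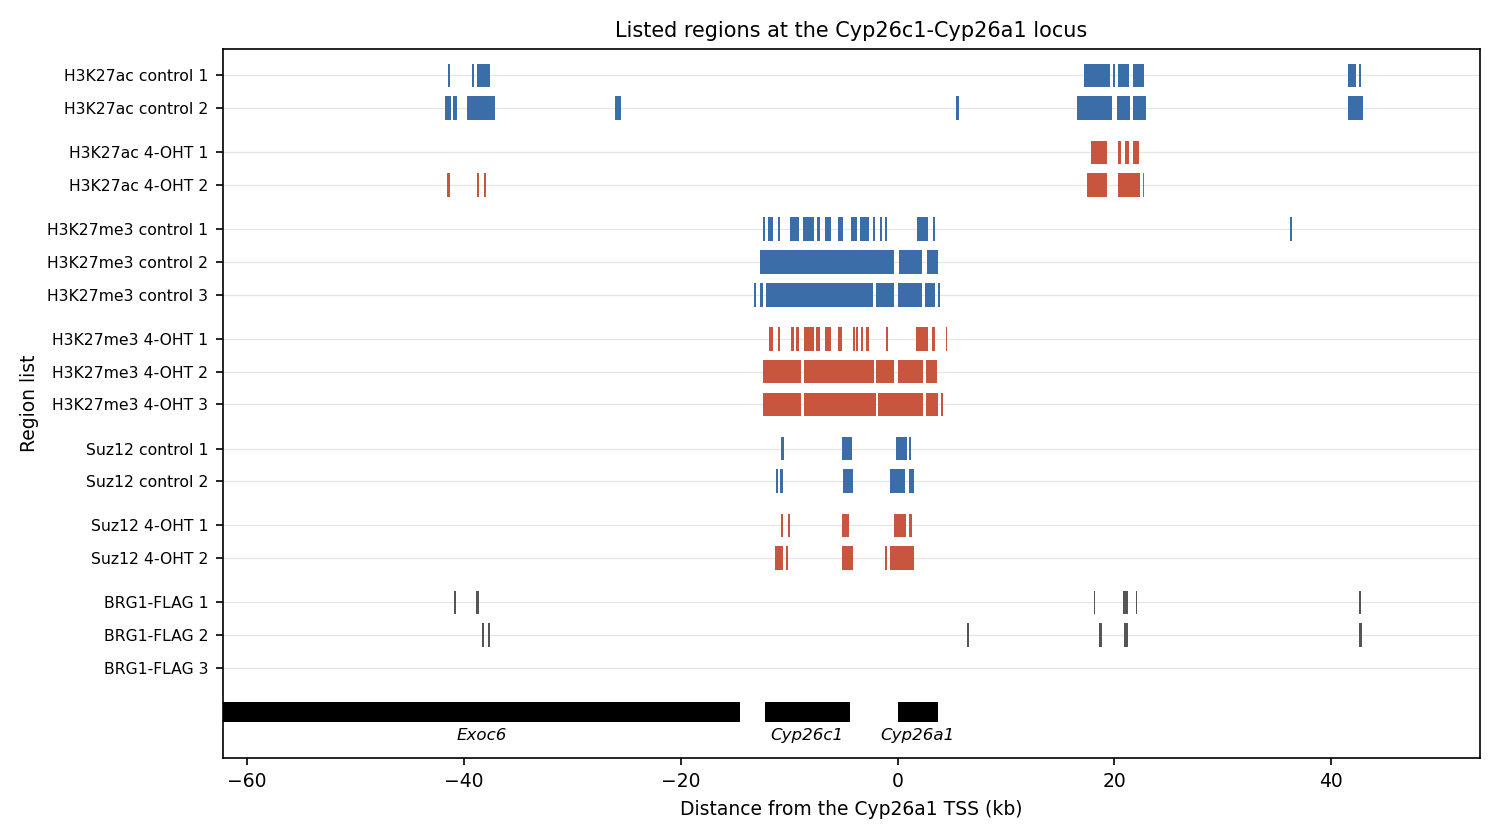
Listed regions in each of the 17 lists (rows) along the Cyp26c1-Cyp26a1 locus, by distance from the Cyp26a1 TSS in kb, with control in blue, 4-OHT in red, Brg1-FLAG in grey and genes in black. H3K27me3 and Suz12 cover the genes in control and 4-OHT alike, H3K27ac lies only in the flanks, and its elements near -38.45 and 42.23 kb are reduced or absent in the 4-OHT lists.

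Cyp26b1 (chromosome 6, 84521938 to 84543740, minus strand) had a single H3K27ac region within 50 kb, intergenic at -7.72 kb from the 5' end, from 84550826 to 84552100. It covered 1100 and 1000 bp in control against 1175 and 1050 bp after 4-OHT, so the groups overlapped and the means (1050 ± 70.7 and 1112.5 ± 88.4 bp, SD, n = 2) differed by less than the SD of either group (exact permutation p = 0.667). No FLAG region lay in it. The central 300 bp, chr6:84551313-84551612 on the plus strand, are shown as the enzyme element that stayed listed in all 4 lists without FLAG binding, for comparison with the elements above, and they have no repeat match.
Cyp26b1 element: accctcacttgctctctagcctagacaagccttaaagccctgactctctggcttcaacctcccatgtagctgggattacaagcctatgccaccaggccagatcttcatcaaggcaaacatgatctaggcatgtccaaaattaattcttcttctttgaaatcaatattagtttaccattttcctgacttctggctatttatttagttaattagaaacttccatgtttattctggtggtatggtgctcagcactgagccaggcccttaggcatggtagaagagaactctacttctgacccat

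Of the receptors, Rara and Rarg differed in direction. Rara (chromosome 11, 98789132 to 98836256, plus strand) had 17725 and 19575 bp of H3K27ac at its locus in control and 16675 and 15250 bp after 4-OHT, a ratio of 0.856. Both 4-OHT lists were lower, by a small amount (limma log2 fold change -0.22, standard error 0.0875, adjusted p = 0.210). Within the promoter window the values were 10000 and 11200 bp in control against 8325 and 8300 bp after 4-OHT, a ratio of 0.784. Rara was the only gene of the 10 lower there (7.31% of all genes and 13.2% of the 12340 with a listed base). Much of this difference lay in an element at 35.94 kb, inside the gene and upstream of the TSS at 98826186, which covered 1500 and 2125 bp in control against 150 and 575 bp after 4-OHT. The largest element of the gene, at 15.61 kb, covered 4050 and 4500 bp in control against 3975 and 3525 bp after 4-OHT. An element at -24.86 kb in the neighbouring gene Wipf2 covered 1925 and 1900 bp and then 1300 and 1200 bp, and so contributed to the locus value without lying in Rara.

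Rarg (chromosome 15, 102065369 to 102087948, minus strand) had 13650 and 13075 bp at its locus in control and 15875 and 14350 bp after 4-OHT, a ratio of 1.13 (limma log2 fold change 0.17, standard error 0.0828, adjusted p = 0.262). Its promoter window held 8350 and 7600 bp and then 9350 and 8925 bp, higher in both 4-OHT lists, which was also true of 21.9% of all genes and 39.4% of those with a listed base. Within the gene body the means were 7560.5 and 9510.5 bp, where the element at 9.5 kb covered 4450 and 4225 bp and then 5250 and 4675 bp, while the element at the 5' end covered 1450 and 775 bp and then 1425 and 1075 bp, with overlap. Rarb (chromosome 14, 17263356 to 17651381, minus strand), the largest of the genes, had 0 and 500 bp of H3K27ac in its 488.026 kb window in control and 300 and 150 bp after 4-OHT, in scattered regions of at most 175 bp. These overlapped between groups and no region was listed in both control replicates.

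Of the binding proteins, Crabp1 (chromosome 9, 54612555 to 54620917, plus strand) had 3700 and 3600 bp at its locus in control and 3125 and 2600 bp after 4-OHT, a ratio of 0.784 (limma log2 fold change -0.33, standard error 0.135, adjusted p = 0.218). The lower values came from the far downstream side. Regions at 41, 41.55 and 52.48 kb covered 100 and 250 bp, 200 and 250 bp, and 325 and 675 bp in control, and none was in a 4-OHT list. The region at 37.01 kb persisted, with 775 and 550 bp and then 850 and 450 bp, as did the promoter of the neighbour Wdr61 at -31.27 kb, with 2000 and 1650 bp and then 2050 and 2025 bp. The element at 52.48 kb, from 54664701 to 54665375, overlapped FLAG regions of replicate 2 (300 bp in all), and a FLAG region of replicate 1 lay beside it at 51.67 kb without sharing a base. Its central 300 bp, chr9:54664888-54665187 on the plus strand, are shown as the widest of the 3 Crabp1 elements that were not listed after 4-OHT. They have no repeat match.
Crabp1 element: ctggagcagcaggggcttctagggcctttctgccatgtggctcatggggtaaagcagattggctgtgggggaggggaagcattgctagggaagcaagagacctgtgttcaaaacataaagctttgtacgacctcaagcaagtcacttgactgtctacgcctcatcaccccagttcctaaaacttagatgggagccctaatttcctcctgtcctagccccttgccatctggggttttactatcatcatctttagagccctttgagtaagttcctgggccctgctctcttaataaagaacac

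Crabp2 (chromosome 3, 87752588 to 87757298, plus strand) lies in a gene-dense interval, and its locus value of 17725 and 18525 bp in control against 21625 and 21950 bp after 4-OHT (ratio 1.20, limma log2 fold change 0.26, standard error 0.0581, adjusted p = 0.121) belongs mostly to neighbours. The Hdgf promoter element at -39.16 kb alone held 7025 and 7175 bp in control against 7825 and 8150 bp after 4-OHT. An element at -14.76 kb in Isg20l2 was listed only after 4-OHT, with 575 and 1100 bp. Within the body of Crabp2 the change went the other way, from 25 and 350 bp to 0 and 0 bp, and a distal element at -47.19 kb went from 350 and 1250 bp to 0 and 0 bp.

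Counted by elements, 52 H3K27ac regions of the 9 loci were listed in both control replicates, and 10 of these (19.2%, Wilson 95% interval 10.8 to 31.9%, counting error only) were overlapped by no region of either 4-OHT list. The share was 19.8% over the genome. Without control replicate 1 it was 33.8% at the loci and 38.4% over the genome. Distal regions, over 2.5 kb from any TSS, were missing in 7 of 26 cases at the loci and promoter regions in 3 of 26, against 33.1% and 6.04% over the genome. Crabp1 had 3 of its 5 control regions missing and Aldh1a3 its only region, whereas Cyp26a1-Cyp26c1 had 1 of 6 and Rara 2 of 18. The central 500 bp of the 26 distal regions held no DR2 or DR5 match, and 0.474% of 13914 distal control regions of the genome held 1.

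Brg1-FLAG was seen near the genes mostly in single lists. At 2 of 9 loci a region shared a base between at least 2 of the 3 FLAG lists, namely Cyp26a1-Cyp26c1 and, through the Hdgf promoter, Crabp2, against 12.5% of all genes. Within 5 kb of the TSSs no such shared region was found at any of the 10 genes (2.51% of all genes). Rara had FLAG regions in 2 lists there, 50 bp in replicate 1 and 400 bp in replicate 2, at different positions, which 4.59% of all genes matched or exceeded in number of lists. Rarg had 75 bp and Rarb 250 bp in replicate 1 alone. None of the 7 other genes had a FLAG base in the window. Leaving out FLAG replicate 1 or replicate 2 left 0 loci, and taking any region of any replicate gave 8 of 9, which was true of 44.4% of genes. Cyp26b1 was the only locus without a FLAG region in any list.

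H3K27me3 at the promoters remained listed in the deleted cultures. Of the 8 genes with H3K27me3 in control, 7 had it in all 3 4-OHT lists, Crabp2 being the exception. At the Cyp26 genes, Aldh1a2 and Crabp1 the covered length after 4-OHT was 0.839 to 1.07 times that in control in pairs 2 and 3, and 0.220 (Cyp26b1) to 0.798 times (Cyp26c1) in pair 1. In pair 3 it was 0.252 times at Aldh1a3, 0.333 times at Rarb and 0 at Crabp2. No gene of the 10 was lower in all 3 4-OHT lists than in all 3 control lists (2.39% of all genes, 12.2% of the 4344 genes with a listed base), and none was higher (0.0405% and 0.207%). The exact two-sided permutation test of 3 against 3 cannot go below p = 0.1. limma tested 3576 genes and called 0, with 293 genes (8.19%) and 0 of the 8 listed members at an unadjusted p under 0.05, and the members' adjusted p ranged from 0.662 to 0.925. The replicate numbers were taken to pair these samples, and with the replicate as a block limma again called 0, with 873 genes (24.4%) at an unadjusted p under 0.05 and 0.233 as the lowest adjusted p among the members. Without control replicate 1, 3 genes were lower in all remaining 4-OHT lists (Cyp26b1, Cyp26c1 and Aldh1a2, beside 32.4% of listed genes), and without 4-OHT replicate 2, Aldh1a3 and Crabp2 were (24.2%).

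In order of role, Aldh1a2 covered 4525, 5250 and 5425 bp in control against 3450, 4950 and 4550 bp after 4-OHT. Aldh1a3 covered 2125, 3350 and 2875 bp and then 1350, 3425 and 725 bp, and the 725 bp of 4-OHT replicate 3 lay far below its pair. Both groups overlapped their controls. Cyp26a1 covered 3050, 7903 and 7778 bp in control against 2100, 7828 and 8303 bp after 4-OHT. Cyp26c1 covered 2846, 5471 and 5371 bp and then 2271, 4946 and 4946 bp. Cyp26b1 covered 3525, 7569 and 7494 bp and then 775, 6744 and 6669 bp. In all 3 genes replicate 1 was lowest in both conditions, as in the lists as a whole, and the differences between replicates of a condition were larger than those between conditions. Crabp1 covered 2500, 2975 and 3275 bp and then 1775, 2925 and 3225 bp. Crabp2 covered 150, 575 and 400 bp and then 0, 475 and 0 bp, and Rarb 900, 650 and 225 bp and then 1200, 1125 and 75 bp. The region at Crabp2 was thus no longer listed in 2 of 3 4-OHT lists, and Rarb was the only member whose mean was higher after 4-OHT, 800 ± 629 bp against 592 ± 341 bp (SD, n = 3, exact permutation p = 0.6).

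By same-numbered pairs, 5 of the 8 listed genes (Cyp26b1, Cyp26c1, Aldh1a2, Crabp1 and Crabp2) were lower in all 3 pairs, which 44.5% of listed genes were, and 0 were higher in all 3 (0.806%). Without pair 1, the pair with narrow regions, the same 5 genes were lower in both remaining pairs (49.3% of listed genes). The lists themselves were shorter after 4-OHT, with 0.565, 0.817 and 0.760 times the control length in pairs 1, 2 and 3. At Cyp26a1, Cyp26c1, Aldh1a2 and Crabp1 the ratio exceeded that of the whole lists in all 3 pairs, so that after scaling to the list total these 4 genes were higher in every pair (14.3% of listed genes) and none of the 8 was lower in every pair (16.8%). Cyp26c1, Aldh1a2 and Crabp1, lower in every pair as listed, thus reversed direction with this scaling. Scaling moved the median log2 fold change of all genes tested from -0.44 to -0.13. Summed over the 10 promoters, H3K27me3 took up 0.234, 0.307 and 0.327% of the control lists and 0.273, 0.361 and 0.374% of the 4-OHT lists.

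**Figure D4:**
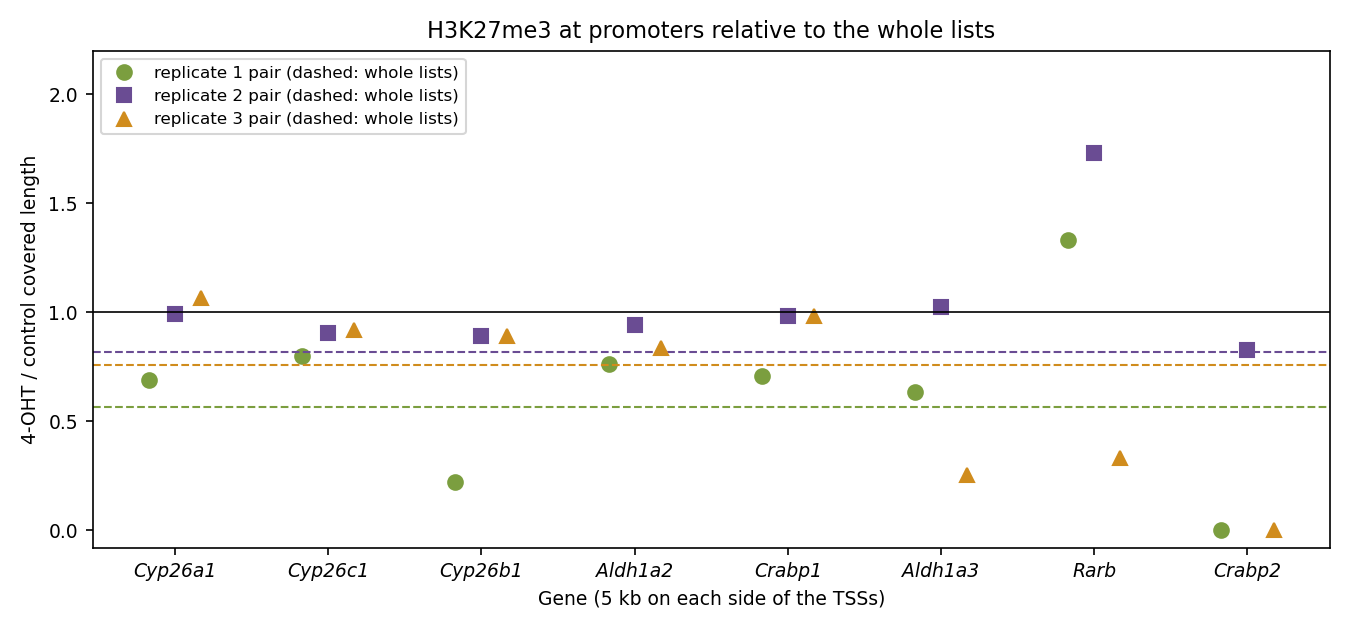
Ratio of 4-OHT to control H3K27me3 covered length within 5 kb of the TSSs for each same-numbered pair at the 8 genes with H3K27me3, with dashed lines at the ratio of the whole lists (0.565, 0.817 and 0.760) and a solid line at 1. Points of Cyp26a1, Cyp26c1, Aldh1a2 and Crabp1 lie above the dashed line of their own pair in all 3 pairs.

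The domains kept their place in both conditions. With regions less than 1 kb apart joined, the H3K27me3 domain over Cyp26c1 and Cyp26a1 measured 16.475 and 17.125 kb in control replicates 2 and 3 and 16.125 and 16.475 kb in the 4-OHT lists of the same number, and spanned both genes and the gap between them. In replicate 1 it was broken up, with a longest joined stretch within 1 kb of the Cyp26c1 TSS of 11.4 kb in control and 1 kb after 4-OHT. The latter stretch ended at 1.33 kb from that TSS and the next region began at 2.355 kb, just beyond the joining distance. Listed H3K27me3 in the domain covered 7000 bp in control replicate 1 and 5150 bp in 4-OHT replicate 1. Suz12 lay inside this domain as separate regions, at the Cyp26a1 TSS (1125 and 1850 bp in control, 1375 and 2150 bp after 4-OHT), at the end of Cyp26c1 (900 and 900 bp, then 650 and 1025 bp) and near the Cyp26c1 start (275 and 400 bp, then 200 and 800 bp). At Cyp26b1, by contrast, Suz12 formed a region as wide as 7.2 kb in control and 7.475 kb after 4-OHT inside an H3K27me3 domain of 13.15 and 12.675 kb in control replicates 2 and 3 and 10.925 and 10.45 kb after 4-OHT, so the 4-OHT domains were the shorter in both pairs. In replicate 1 the joined stretches within 1 kb of either TSS summed to 7.1 kb in control and 0.2 kb after 4-OHT. The control sum includes a separate region of 175 bp at the upstream TSS. By covered length, the Cyp26b1 gene body held 5025 bp in control replicate 1 and 1175 bp in 4-OHT replicate 1. At Aldh1a2 a Suz12 region of 2.275 to 2.525 kb in all 4 lists began at -0.595 to -0.52 kb from the TSS. At Crabp1 it measured 1.375 to 1.75 kb.

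**Figure D5:**
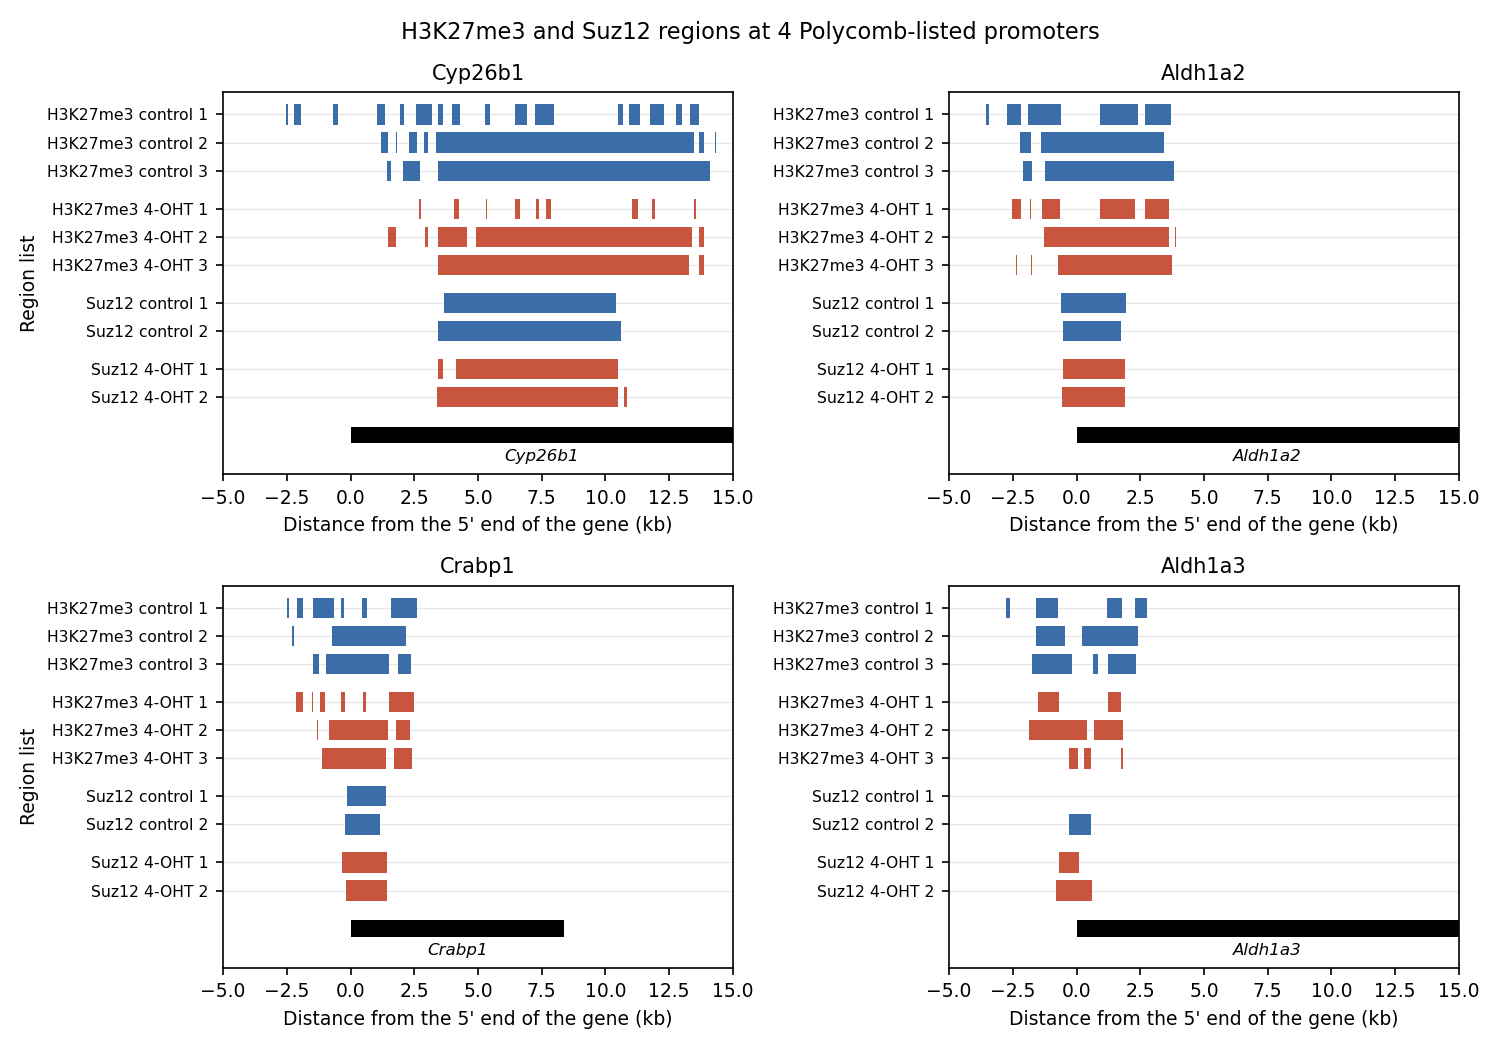
Listed H3K27me3 and Suz12 regions in each list at Cyp26b1, Aldh1a2, Crabp1 and Aldh1a3, by distance in kb from the 5' end of the gene, with control in blue, 4-OHT in red and the gene in black. The Suz12 region keeps its position in both conditions at Cyp26b1, Aldh1a2 and Crabp1, and H3K27me3 of replicate 1 is broken into narrow pieces in both conditions.

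Suz12 at the promoters was lower in both 4-OHT lists than in both control lists at 0 of 10 genes (0.608% of all genes, 5.68% of the 2377 genes with a listed base) and higher at 2, Crabp1 and Crabp2 (3.48% and 32.5%). Crabp1 covered 1550 and 1375 bp in control against 1750 and 1600 bp after 4-OHT (exact two-sided permutation p = 0.333, the smallest for 2 against 2), and scaled to the list totals its groups overlapped. Crabp2 went from 0 and 0 bp to 25 and 150 bp, the same promoter at which H3K27me3 was missing from 2 of the 4-OHT lists. Aldh1a3 covered 0 and 875 bp in control against 800 and 1400 bp after 4-OHT, with overlap. Aldh1a2 covered 2525 and 2275 bp and then 2450 and 2475 bp, and Cyp26b1 6444 and 6694 bp and then 6169 and 6719 bp, both within the spread of their controls or close to it. Cyp26a1 covered 1928 and 2703 bp and then 1928 and 3253 bp, Cyp26c1 275 and 400 bp and then 225 and 975 bp, and Rarb 0 and 0 bp and then 0 and 200 bp. In these 3 genes 4-OHT replicate 2 was the highest list and replicate 1 was level with the controls or below them. limma tested 1968 genes and called 0, with 350 genes (17.8%) and 0 of 7 members at an unadjusted p under 0.05. The lowest adjusted p was that of Aldh1a3, 0.476, at a log2 fold change of 1.31 with a standard error of 0.789. Without control replicate 2, the only control list with Suz12 at Aldh1a3, the limma log2 fold change of that gene was 2.40. Both 4-OHT values of Aldh1a2 then lay below the remaining control value. Without 4-OHT replicate 2, the remaining 4-OHT value lay below both controls at Cyp26b1 and Cyp26c1. With 1 list left in an arm such separation is easier to reach, and the shares over all genes under these settings are not given here. The median log2 ratio was 0.30 over the 8 listed members and 0.26 over all listed genes.

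The pathway has many more genes, and 31 of them were examined from lists of retinoid metabolism and transport (12 genes), receptor partners and cofactors (10) and genes known to respond to retinoic acid (10), with Dhrs3 in 2 lists. H3K27ac at the locus was lower in both 4-OHT lists at the metabolism genes Dhrs3 and Adh5, at 3 of 10 partners (Rxrg, Ncor1 and Ncoa2) and at 3 of 10 responsive genes (Cdx1, Nrip1 and Dhrs3), and higher at 0 metabolism genes, 2 partners (Rxrb and Ep300) and 2 responsive genes (Meis1 and Stra8), beside the 17.6% and 31.2% of all genes. Cdx1, a caudal-type homeobox gene of the posterior embryo, had 2850 and 4875 bp in control against 50 and 650 bp after 4-OHT. Rxrg, an RXR partner of the receptors, had 925 and 1425 bp and then 0 and 0 bp. Dhrs3, a reductase that returns retinaldehyde to retinol, had 2025 and 2575 bp and then 2000 and 800 bp. Rxrb, another RXR, went the other way, from 4075 and 4575 bp to 6025 and 6525 bp. The acetyltransferase gene Ep300 had 3375 and 3375 bp and then 5075 and 3525 bp, and the homeobox gene Meis1 1925 and 2175 bp and then 2525 and 2975 bp. H3K27me3 at the promoter was lower in all 4-OHT lists only at Stra6, the receptor for retinol-binding protein (5225, 3781 and 1100 bp in control, 1000, 0 and 0 bp after 4-OHT). The same was true of 2.39% of all genes and 12.2% of those with a listed base. Suz12 was lower in both 4-OHT lists at 0 of the 31 genes and higher at Rbp4, which encodes the plasma carrier of retinol (25 and 175 bp, then 475 and 425 bp), Lrat, which stores retinol as esters (150 and 300 bp, then 500 and 925 bp), and Cdx1 (1075 and 1025 bp, then 1150 and 1350 bp). Suz12 was lower at 0.608% and higher at 3.48% of all genes, or 5.68% and 32.5% of genes with a listed base. Among the responsive genes, Nr2f1, Nr2f2, Meis1, Meis2 and Cdx1, named after their values were seen, carried H3K27me3 in all 6 lists and Suz12 in all 4, as did the Cyp26 genes, Aldh1a2 and Crabp1. In control, 14.8% of all genes had H3K27me3 in at least 2 of 3 lists and 6.32% had Suz12 in both. Unlike the Cyp26 genes, Meis1 (650 and 825 bp, then 700 and 850 bp) also had promoter H3K27ac in all 4 lists. So did Meis2 (350 and 425 bp, then 1250 and 1750 bp).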

How the data were processed

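Enriched regions of 17 ChIP-seq samples were analysed, and 11 input samples had no list of their own. The deposited region lists give chromosome, start and end only, with no score or count, so read depth is unknown and the number and summed length of regions stand in for it. Per the methods of the study and the submitters' processing notes, the authors aligned reads to mm9 with Bowtie (version not given) and called regions against input with a Poisson model (region edges are multiples of 25 bp), at 1e-06 and 2-fold over input for FLAG and 1e-12 for the other marks. Each replicate was called separately.

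Covered bp were computed per list in the gene body with 50 kb on each side (H3K27ac, FLAG) or within 5 kb of every protein-coding TSS (H3K27me3, Suz12, and H3K27ac as a second window), with Python 3.11.15, numpy 2.4.6 and scipy 1.17.1. Neighbouring genes share regions. Groups came from the labels, with both conditions compared by exact two-sided permutation tests and, across all genes with covered bp in at least 2 lists, by limma 3.58.1 (R 4.3.3, trend, Benjamini-Hochberg adjustment, threshold 0.05) on log2(covered bp + 250), so fold changes of short regions are understated. No sample was dropped or imputed. Programs were tested on simulated data. H3K27me3 replicate numbers were taken as pairs, because deviations from the group means correlated at 0.711, 0.508 and 0.508 in same-numbered lists. The 2-sample groups were not taken as paired, and such a correlation cannot settle it with 2 lists per group. Differently numbered H3K27me3 lists correlated at -0.575 to 0.303, positive between replicates 2 and 3 (0.214 and 0.303). The labels do not state a pairing, while the study describes comparing control and treated cultures of the same differentiation.

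All 10 genes are named. Other pathway genes are named with values where groups did not overlap, at most the 3 largest differences per mark and direction. Some genes of these lists are not reported here. The genes and lists were chosen with earlier results of these data known. Alternatives without H3K27me3 replicate 1, and with the block scaled by list total, were chosen after seeing the data. Sequences and TSSs are from NCBIM37 with the GENCODE annotation of that build.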

Additional observations from a re-analysis of the deposited data

How the results depend on the processing

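The direction of H3K27me3 over same-numbered pairs reversed at Cyp26c1, Aldh1a2 and Crabp1, which were lower in every pair as listed and higher in every pair scaled to the list total. No gene whose unpaired groups were separate reversed under any alternative run. Of 113 alternatives of the main results, 95 were graded the same, which does not mean identical values. That grade allowed a count to shift within a set factor and the Cyp26a1-Cyp26c1 ratio to change in size but not direction. It also allowed the missing share to move inside its Wilson interval. The count of H3K27ac loci lower after 4-OHT stayed between 3 and 5, losing Crabp1 with 25 kb on each side and Rara with regions within 1 kb joined, and the Cyp26a1-Cyp26c1 ratio stayed between 0.290 and 0.599. The count of H3K27me3 promoters lower after 4-OHT went from 0 to 1 (Cyp26b1) with regions within 1 kb joined and with the 5' end of the gene alone. It went to 3 without replicate 1 of both conditions and to 5 with the replicate block (44.5% of listed genes). With the block and without replicate 1 it was also 5 (49.3%). Leaving out single lists gave 0 to 3. For Suz12 that range was 0 to 2 lower and, by limma, 0 to 1 called (Aldh1a3 without control replicate 2). With 1 list left in an arm, limma assumes that it varies like the other group, and groups separate more readily. Except where a share over all genes is stated, these counts describe the members alone. Scaling to the list total gave 1 H3K27ac locus called by limma (Aldh1a3), 564 genes called in all instead of 0, and 17 instead of 0 for Suz12, while leaving out Suz12 control replicate 1 or 2 gave 69 or 86. Scaling moved the median log2 fold change of all genes from 0.11 to 0.20 for H3K27ac and from 0.21 to 0.14 for Suz12. Loci with FLAG in 2 of 3 replicates went from 2 to 1 with 25 kb on each side, to 1 with regions of at least 100 bp and to 8 with any replicate, and were 0 to 2 with single replicates left out. The share of missing H3K27ac control regions was 38.1% for regions in either control replicate (38.3% over the genome) and 21.2 to 33.8% with single lists left out. The cause of these changes was not tested. In H3K27ac and Suz12 the replicate number was not taken as a pairing (correlations of same-numbered deviations 0.338 and 0.0805, which cannot settle it with 2 lists per group). The replicate block in limma called 0 genes in both, with 6249 and 399 genes at an unadjusted p under 0.05 and smallest adjusted p of 0.0587 and 0.216 among the members. It changed no other call. Of 272 alternatives of single-gene values, 239 were graded the same, 8 moved, 2 lost and 23 gained separation of the groups. Alternatives that left a gene with no listed base in any list were not graded, such as H3K27ac at Crabp1 with 25 kb on each side. Lost separations are therefore undercounted. The same grade meant that separate groups stayed separate, or that overlapping ones shifted by less than the SD between replicates. Without the filter on low values, genes at 0 in all lists could not be fitted and entered the adjustment as not significant. The lists hold no depth, so a region absent from a list may lie just under the authors' threshold.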
